A study of Homo sapiens with 4 samples.

Results

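The clustered histone genes are the 73 of 25192 genes in the deposited tables whose symbols start with HIST1H, HIST2H, HIST3H or HIST4H. The rule uses the symbol and no measured value, although it was set with earlier results of these data known. By protein they comprised 6 genes of linker histone H1, which binds DNA between nucleosomes, and 18 H2A, 20 H2B, 14 H3 and 15 H4 genes, whose products form the nucleosome core. By genomic cluster they comprised 56 HIST1, 13 HIST2, 3 HIST3 genes and 1 HIST4 gene. RNA was sequenced from A549, a human lung adenocarcinoma cell line, 48 h after infection with retrovirus made from the pLZRS-IRES-GFP vector. In 2 libraries the cells had received the control virus, which carries GFP and no added gene and is called the empty virus (EV), and in 2 libraries the FCN3 virus, which adds V5-tagged full-length FCN3, a secreted lectin of the complement system. All 4 libraries thus came from infected cells of 1 line, and uninfected cells were not analysed here. The replicates carry the numbers 1 and 2 in each group, and nothing in the labels says that they were separate cultures, so the p-values measure the spread between these libraries, which may be technical.

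Most clustered histone genes are replication-dependent. They are transcribed in S phase under NPAT, which cyclin E-CDK2 phosphorylates, and supply the histones that package newly made DNA. Their mRNAs usually have no poly(A) tail and end instead just after a short hairpin, the histone stem-loop, which is bound by SLBP and cut by a complex that contains the U7 snRNP. Some of the genes are also known to give a longer, polyadenylated mRNA by reading past the stem-loop. The libraries were made with a stranded mRNA kit that captures RNA by its poly(A) tail, so a read from one of these genes came from a molecule that was captured in some way, and the values below describe what this selection retained.

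The stem-loop was searched for in the 67 members that have a coding sequence in GENCODE on GRCh37 (hg19), within 120 bases after the stop codon, and was found in all 67, at 22 to 67 bases from the stop codon (median 35). It lies in the 3′ UTR of each gene. The 4 most frequent forms are shown because they are the shared element of the family, with the stem in capitals and the loop in lower case.
39 members of types H1, H2A, H2B and H3: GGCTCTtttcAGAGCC
9 members of types H1, H2A, H2B and H3: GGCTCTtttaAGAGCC
9 members of type H4: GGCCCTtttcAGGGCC
4 members of type H4: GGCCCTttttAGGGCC
The most frequent H4 forms thus had stem letters of their own, while the other 4 types shared theirs. The remaining 6 members each had a form of their own.

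What followed the stem-loop differed between members. The canonical polyadenylation signal AATAAA, read on the gene's own strand, lay within 100 bases past the stem-loop in 4 of the 67, at 13 bases in HIST1H1C and HIST1H2BD and at 14 bases in HIST2H2AA3 and HIST2H2AA4. Among windows of 100 bases that start 51 bases after the stop codon, 10.2% of 20108 coding genes held these letters. The 24 bases after the stem-loop are shown for those 4 genes, with the signal in capitals, beside HIST1H2BK, the member of highest level, and HIST1H3B, an H3 gene near the detection limit that was picked with its values known, which have no signal in this stretch.
HIST1H1C (chr6:26055948-26055971, minus strand): accactgatctcAATAAAagagct
HIST1H2BD (chr6:26158831-26158854, plus strand): acgcatgttttcAATAAAtgagtt
HIST2H2AA3 (chr1:149813766-149813789, minus strand): acccacgttttcaAATAAAagagt
HIST2H2AA4 (chr1:149823157-149823180, plus strand): acccacgttttcaAATAAAagagt
HIST1H2BK (chr6:27114121-27114144, minus strand): acttaaattatcgatattagagct
HIST1H3B (chr6:26031801-26031824, minus strand): acccacttattccaacgaaagtag
A match is a description of the letters and not evidence of use.

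FCN3 itself was checked first. It had 1 expected count in EV replicate 1, 0 in EV replicate 2, 722388 in FCN3 replicate 1 and 448352 in FCN3 replicate 2. In TPM, a transcript abundance scaled for gene length and depth that has the same total in every library, FCN3 reached 41618 and 44730 in the FCN3-virus-transduced libraries, and that part of the total was not left to the other genes there. Expected counts totalled 35733735 and 35031565 in the replicate 1 libraries of EV and FCN3, and 16353554 and 20136068 in the replicate 2 libraries. Of 8 markers of the A549 epithelium, KRT8, KRT18, KRT7, AKR1B10, AKR1C1 and ALDH1A1 stood between 219 and 6415 TPM in all libraries, whereas EPCAM stood between 1.09 and 3.65 and CDH1 between 3.35 and 9.53. Of 6 markers of other cell types, the endothelial PECAM1 was listed at 0 throughout, the leukocyte gene PTPRC had 1 count in all, and the endothelial CDH5 had at most 4 counts in a library. The fibroblast gene COL1A1 was 3.39 and 2.70 TPM in the replicate 1 libraries and 8.12 and 7.87 in the replicate 2 libraries, COL3A1 at most 0.41 TPM and the monocyte gene CD14 at most 1.99 TPM.

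Few clustered histone genes were well covered. A member counted as detected at 3 or more expected counts, and 40 of the 73 (54.8%) were detected in EV replicate 1, 27 (37.0%) in EV replicate 2, 31 (42.5%) in FCN3 replicate 1 and 27 (37.0%) in FCN3 replicate 2. Over all genes the same shares were 61.6%, 59.4%, 62.6% and 60.8%. Thinned to the total expected count of the shallowest library, they detected 25, 27, 20 and 27 members in the same order, while 58.3%, 59.5%, 59.0% and 59.8% of all genes were detected. EV replicate 1 thus had the most members detected at full depth but not after thinning. Over the 4 libraries, 22 members were detected in every one, 24 in some but not all, and 27 in none. The latter included 11 members at 0 throughout, of which 2 were H1, 2 H2A, 3 H2B, 1 H3 and 3 H4 genes. For all of these the libraries allow up to 3 counts, and intervals and floors of this kind cover counting error only.

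The levels of the members spanned a wide range. The mean TPM over the 4 libraries was under 1 in 50 members, at least 1 in 23, at least 5 in 10 and at least 10 in 4. Its median over the 73 members, the 11 at 0 included, was 0.39. Over all genes with a value above 0 the median was 6.68 TPM, a set that leaves out genes at 0, so the medians are not of like sets. By type, a mean of at least 1 TPM was reached by 1 of 6 H1 genes, 8 of 18 H2A, 8 of 20 H2B, 2 of 14 H3 and 4 of 15 H4 genes. The genes are also short. Their median length in the files was 462 bases (354 to 2223), against 2194 bases over all genes. Counts were low, and 52 members had fewer than 20 counts over the 4 libraries together.

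Members with certain features past the stem-loop were at higher levels, which is a description and was not tested. The 4 members with an AATAAA within 100 bases were detected in all 4 libraries, at mean levels of 8.15 to 23.8 TPM (median 12.0). Among them HIST2H2AA3 and HIST2H2AA4 are copies whose reads were split equally, so they are not separate observations. The other 63 members had a median of 0.38 TPM, and 17 of them were detected in all libraries. A transcript annotated by GENCODE to end more than 20 bases past the stem-loop existed for 18 of the 67 members. Of these, 14 were detected in all libraries, and the median of the 18 was 2.75 TPM. The copies HIST2H4A and HIST2H4B, which share their reads, are both among the 18. The 49 members without such a transcript had a median of 0.348 TPM, and 7 were detected in all libraries. HIST1H2BK had neither feature in GENCODE, but its transcript in the deposited tables was 839 bases long. Taking as a further feature a length above 600 bases in the files (other than for H1 genes, whose coding sequence is longer), 22 members had at least 1 of the 3 features. Of these, 17 were detected in all libraries (median 2.97 TPM), compared with 4 of the 45 members with none (median 0.298 TPM). Of the 20 members with the highest mean TPM, 15 had a feature. An annotation of a longer transcript itself rests on polyadenylated RNA seen elsewhere, and RSEM can count reads past the stem-loop only where its annotation reaches them. The length feature was added after the level of HIST1H2BK had been seen. The 2 members that had this feature alone were HIST1H2BK and HIST1H3D. The transcript of HIST1H3D was 864 bases long, yet its mean was 0.0575 TPM and it was detected in no library. At a longer distance the signal did not separate the members: AATAAA within 1000 bases was present in 32 members with a median of 0.40 TPM and absent from 35 with a median of 0.41 TPM.

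**Figure D1:**
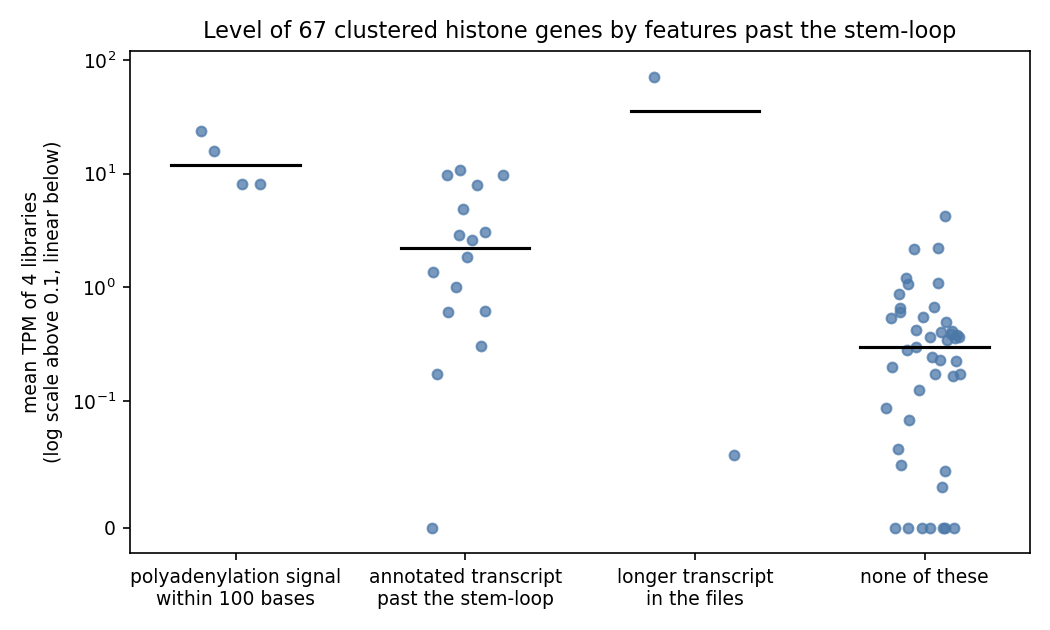
Mean TPM over the 4 libraries (vertical axis, log scale above 0.1 and linear below) of the 67 members with a coding sequence, each a point, in 4 classes that do not overlap, with the class median as a line. From left to right the classes hold 4, 16, 2 and 45 members. All 4 members with a polyadenylation signal within 100 bases lie at or above 8.15 TPM. The highest of the 45 members with none of the features reached 4.29 TPM. HIST2H2AA3 and HIST2H2AA4 in the first class are copies that share their reads, as are HIST2H4A and HIST2H4B in the second.

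HIST1H2BK, an H2B gene, had the highest level, with 60.6 and 79.7 TPM in EV replicates 1 and 2 and 68.1 and 76.6 TPM in FCN3 replicates 1 and 2. The groups overlapped. HIST1H1C, which encodes a linker histone, was next with 18.7 and 22.2 TPM in EV and 25.4 and 28.9 TPM in the FCN3-virus-transduced libraries, where both values were above both of EV. The other 5 H1 genes were far lower, and the 2 nearest, HIST1H1D and HIST1H1E, had means of 0.38 and 0.245 TPM.

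Among the other H2B genes, HIST1H2BD stood at 17.7 and 16.6 TPM in EV and 11.8 and 17.2 TPM with FCN3 virus. HIST1H2BC, HIST1H2BJ, HIST2H2BE and HIST1H2BN had means of 1.36 to 4.89 TPM. HIST2H2BC, a pseudogene of the H2B family, stood at 7.42 and 7.92 TPM in EV and at 3.37 and 5.42 TPM with FCN3 virus, lower in both libraries than in either EV library.

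The highest H2A gene was HIST1H2AC, with 12.7 and 9.84 TPM in EV and 9.77 and 10.5 TPM with FCN3 virus. HIST3H2A was 9.07 and 10.0 TPM in EV, 8.37 TPM in FCN3 replicate 1 and 4.21 TPM in FCN3 replicate 2, so that the low value came from 1 library, with 16 counts. HIST2H2AA3 and HIST2H2AA4, whose reads are also shared, were each 6.84 and 8.77 TPM in EV and 8.51 and 8.49 TPM with FCN3 virus, and the groups overlapped. HIST2H2AC, with which reads of this pair were also divided, was 7.25 TPM in EV replicate 1 and 2.57 to 3.93 TPM in the other 3 libraries. HIST1H2AI and HIST1H2AG had means of 2.22 and 2.20 TPM.

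The highest H4 genes were HIST2H4A and HIST2H4B, copies that share their reads, each with 10.3 and 10.4 TPM in EV and 8.54 and 9.84 TPM with FCN3 virus, lower in both libraries than in either EV library. HIST1H4H, another H4 gene, had 7 and 3 counts in EV and 15 and 11 counts with FCN3 virus, or 1.71 and 1.60 against 3.64 and 4.61 TPM, and the groups did not overlap. HIST1H4E had a mean of 1.20 TPM. H3 genes were lower. The highest of them, HIST1H3H, had 10, 8, 4 and 8 counts in EV replicates 1 and 2 and FCN3 replicates 1 and 2. HIST1H3E and HIST2H3D followed with means of 1.02 and 0.658 TPM. HIST1H3B, whose sequence past the stem-loop is shown above, had 4, 2, 2 and 1 counts.

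**Figure D2:**
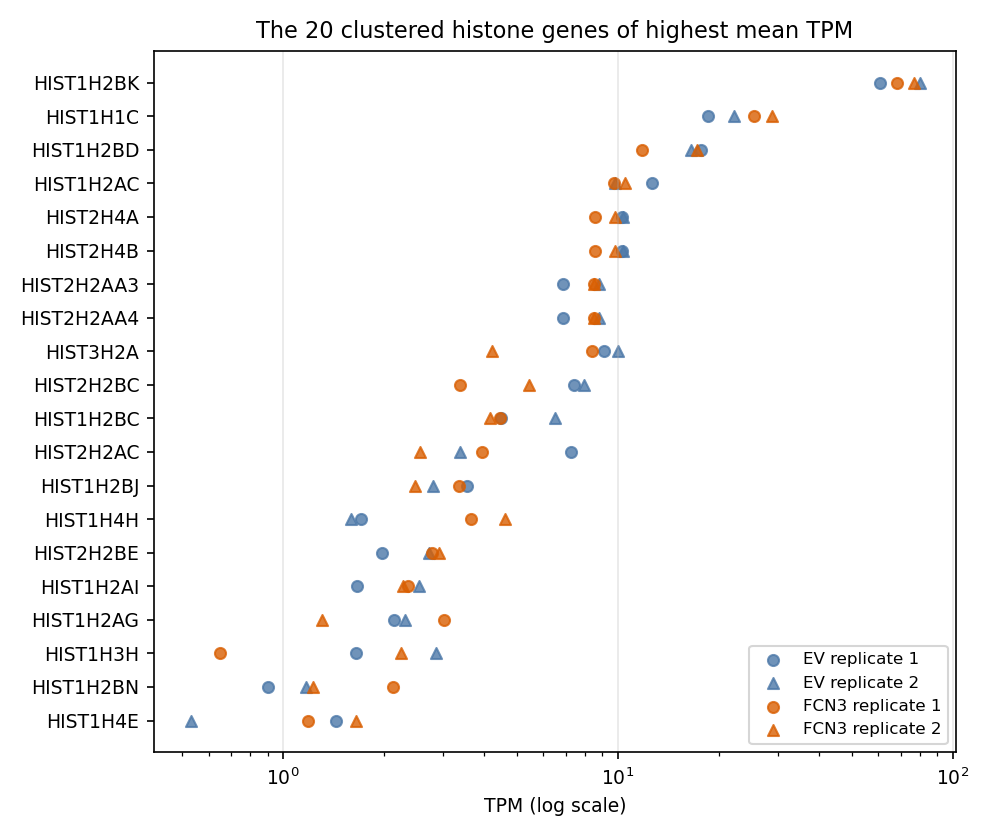
TPM (log scale) of the 20 clustered histone genes of highest mean TPM, with 1 point for each library, circles for replicate 1, triangles for replicate 2, blue for EV and orange for FCN3 virus. HIST1H2BK, at 60.6 to 79.7 TPM, stands apart from the rest. Both orange points lie to the right of both blue points in 4 genes (HIST1H1C, HIST1H4H, HIST2H2BE and HIST1H2BN), to the left in 5 (HIST2H4A, HIST2H4B, HIST3H2A, HIST2H2BC and HIST1H2BC), and the other 11 overlap. Those 9 of 20 (45.0%) compare with 56.6% of all genes tested, of which 2788 lay above and 5189 below in TPM. HIST2H4A and HIST2H4B are copies that share their reads.

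Several members share sequence, so that RSEM had to divide reads between them. HIST2H2AA3 and HIST2H2AA4, HIST2H4A and HIST2H4B, HIST2H3A and HIST2H3C, and HIST1H4J and HIST1H4K have 100% identical coding sequences within each pair. For the HIST2H2AA pair RSEM split the reads equally, giving each gene 49.7 and 29.3 counts in EV and 62.4 and 36 counts with FCN3 virus. Each gene of the HIST2H4 pair likewise received 46.5 and 21.5 counts in EV and 39.0 and 26.0 with FCN3 virus. HIST1H4J and HIST1H4K differ outside the coding sequence, and both had whole counts, given to 1 gene at a time. HIST1H4J had 10 counts in EV replicate 1 and 0 elsewhere, while HIST1H4K had 8 and 3 counts in the FCN3-virus-transduced libraries and 0 in EV. Taken one by one, the genes of this pair look specific to a group, whereas their sums were 10 and 0 counts in EV and 8 and 3 counts with FCN3 virus, and these overlapped. Expected counts that were not whole, to within 0.005, marked 12 members in all. The counts of HIST2H2BE and HIST2H2BF added up to whole numbers in every library (95, 60, 130 and 89), and those of HIST1H2AI and HIST1H2AJ likewise (10, 7, 18 and 8). The HIST2H2AA pair alone added up to 99.32, 58.68, 124.82 and 72.0 counts. With HIST2H2AC added, the sums were close to whole numbers (138, 66.99, 146.01 and 80). A change in 1 gene of such a group, HIST2H2AC and the HIST2H2AA pair included, thus depends on how the reads were divided.

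Summed over all 73 members, the level did not separate the groups. The sum was 207 and 228 TPM in EV (218 ± 15.04, SD, n = 2) and 202 and 218 TPM with FCN3 virus (210 ± 11.6, SD, n = 2). The 10 highest members made up 77.5% to 82.3% of it. H2B genes contributed 101 and 123 TPM in EV and 98.6 and 113 TPM with FCN3 virus, and H4 genes 29.5 and 23.8 against 25.7 and 30.3 TPM. Both types overlapped between the groups. H2A genes summed to 49.5 and 50.7 TPM in EV and 47.0 and 39.7 TPM with FCN3 virus, the lowest value being that of the library with the low HIST3H2A. H1 genes, nearly all HIST1H1C, summed to 19.5 and 23.1 TPM in EV and 26.0 and 29.5 TPM with FCN3 virus. H3 genes summed to 7.83 and 8.07 TPM in EV and 4.44 and 5.19 TPM with FCN3 virus (7.95 ± 0.170 against 4.81 ± 0.530, SD, n = 2), and these sums rest on 48.0, 23, 28 and 18 counts in all. Without the 3 highest members the total was 110.0 and 109.7 TPM in EV and 96.4 and 95.4 TPM with FCN3 virus. These sums were made in TPM only, where FCN3 takes part of the total, and were not tested. In this unit both FCN3-virus values lay below both EV values for 5189 of all genes tested, and above for 2788. A lower sum in TPM is thus not read as a change in the members. In bulk RNA, fewer cells in a state and less RNA per cell cannot be told apart.

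**Figure D3:**
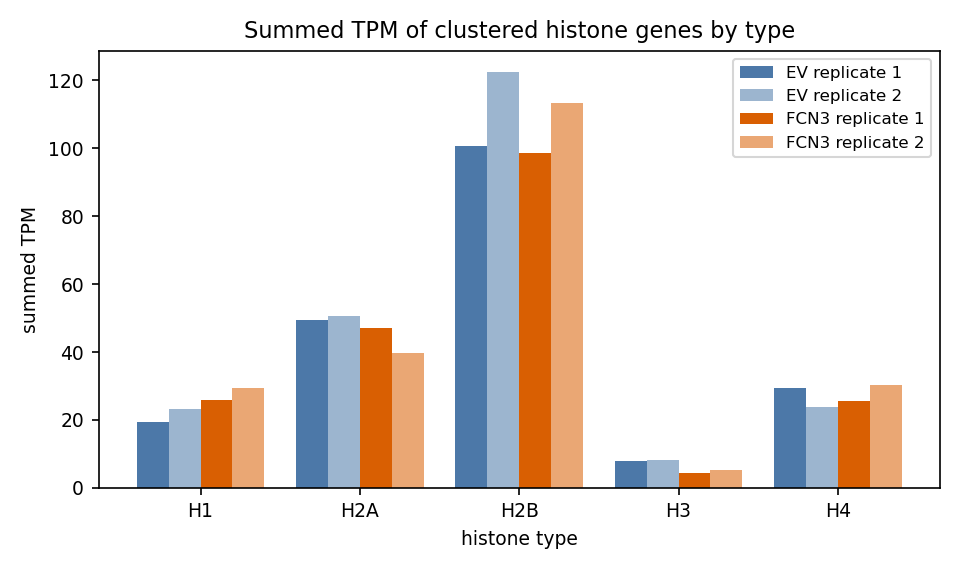
Summed TPM (vertical axis, from 0) of the clustered histone genes of each type in each library, blue for EV and orange for FCN3 virus, with the replicate 2 libraries in the lighter shade. The H2B bars, at 98.6 to 123 TPM, are the tallest in every library, and the H3 bars, at 4.44 to 8.07 TPM, the shortest.

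The FCN3-virus-transduced libraries were then compared with EV gene by gene with edgeR's quasi-likelihood test on rounded expected counts. The false discovery rate (FDR) was set at 0.01 and adjusted by Benjamini-Hochberg across 14099 genes, those left by the filter on low counts. Of the 73 members 19 passed this filter. The other 54 had 119.99, 52, 89.8 and 46 counts between them in EV replicates 1 and 2 and FCN3 replicates 1 and 2, and were not tested. None of the 19 was called, against 0.965% of all genes tested. The smallest adjusted p was 0.15, and 2 of the 19 (HIST1H1C and HIST1H4H) had an unadjusted p under 0.05, beside 25.1% of all genes tested. DESeq2, which fitted 62 members, called 0, whether or not the replicate block was included. Of the 18636 genes it fitted, it called 588 up and 458 down without the block, and 1106 up and 1103 down with it. The default filter of DESeq2 can leave genes of low mean count without an adjusted p, and members of that kind could not be called. The log2 fold changes of the 19 ranged from -0.76 to 1.34 with a median of -0.02, beside 0.02 for all genes tested. 9 were above 0 and 10 below. The standard errors were 0.17 to 0.74 without the replicate block and 0.08 to 0.59 with it.

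Libraries were also compared within each replicate number, since the replicate numbers separated the libraries for many genes. With the number as a block, edgeR called 36.2% of all genes tested and 1 of the 19 members (5.26%), HIST1H1C. The blocked fit leaves 1 residual degree of freedom. Its p-values, here and below, thus lean on variance shared across genes more than on the spread of each gene's own libraries. The median of the members' log2 differences was 0.09 within replicate 1 and -0.01 within replicate 2. 7 members were higher with FCN3 virus within both numbers, 6 were lower within both, and the remaining 6 changed sign. The same counts were not made over all genes, so nothing is drawn from them. The copies HIST2H2AA3 and HIST2H2AA4 are both among the higher members, and HIST2H4A and HIST2H4B both among the lower. In CPM (counts scaled to the library total, normalized by TMM), both FCN3 values lay above both EV values for HIST1H1C, HIST1H4H, HIST2H2BE, HIST2H2AA3 and HIST2H2AA4, and below for HIST2H2BC. These 6 of 19 (31.6%) compare with 54.5% of all genes tested, of which 3949 lay above and 3734 below. With the copies HIST2H2AA3 and HIST2H2AA4, and HIST2H4A and HIST2H4B, each counted once, 5 of 17 members (29.4%) did not overlap. The place of the HIST2H2AA pair among these depends on how its reads were divided with HIST2H2AC. In TPM the balance was the other way, for the members and for all genes tested. There 8 of the 19 (42.1%) did not overlap, 3 above (HIST1H1C, HIST1H4H and HIST2H2BE) and 5 below (HIST2H2BC, HIST1H2BC, HIST3H2A, HIST2H4A and HIST2H4B), beside 56.6% of all genes tested, of which 2788 lay above and 5189 below. Only HIST1H1C, HIST1H4H, HIST2H2BE and HIST2H2BC were separated in both units.

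HIST1H1C was 5.74 and 6.87 CPM in EV and 8.49 and 9.50 CPM with FCN3 virus. Its log2 fold change was 0.53 (SE 0.18, edgeR adjusted p = 0.15), and 0.56 within replicate 1 and 0.46 within replicate 2. With the replicate block edgeR gave 0.52 (SE 0.13, adjusted p = 8.7e-04) and DESeq2 0.51 (adjusted p = 0.18), so the call rests on edgeR's blocked fit. No other annotated gene overlaps HIST1H1C (chr6:26055968-26056698, minus strand), unlike several other members.

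HIST1H4H had the largest estimate, a log2 fold change of 1.34 (SE 0.53, edgeR adjusted p = 0.19, and 0.048 with the block), from 36 counts over the 4 libraries. HIST2H2BC had the lowest, at -0.76 (SE 0.34, edgeR adjusted p = 0.25, and 0.021 with the block), with 1.67 and 1.79 CPM in EV and 0.825 and 1.31 CPM with FCN3 virus. Neither passed the threshold. HIST2H2BE gave 0.43 (SE 0.26) and HIST2H2BF 0.62 (SE 0.56), genes between which reads were divided. HIST1H2BK, the member with the most counts, gave 0.16 (SE 0.17, edgeR adjusted p = 0.61, and 0.087 with the block), being 22.1 and 29.3 CPM in EV and 27.0 and 29.96 CPM with FCN3 virus. HIST3H2A differed by 0.00 within replicate 1 and by -1.09 within replicate 2, where its FCN3 library was the low one.

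**Figure D4:**
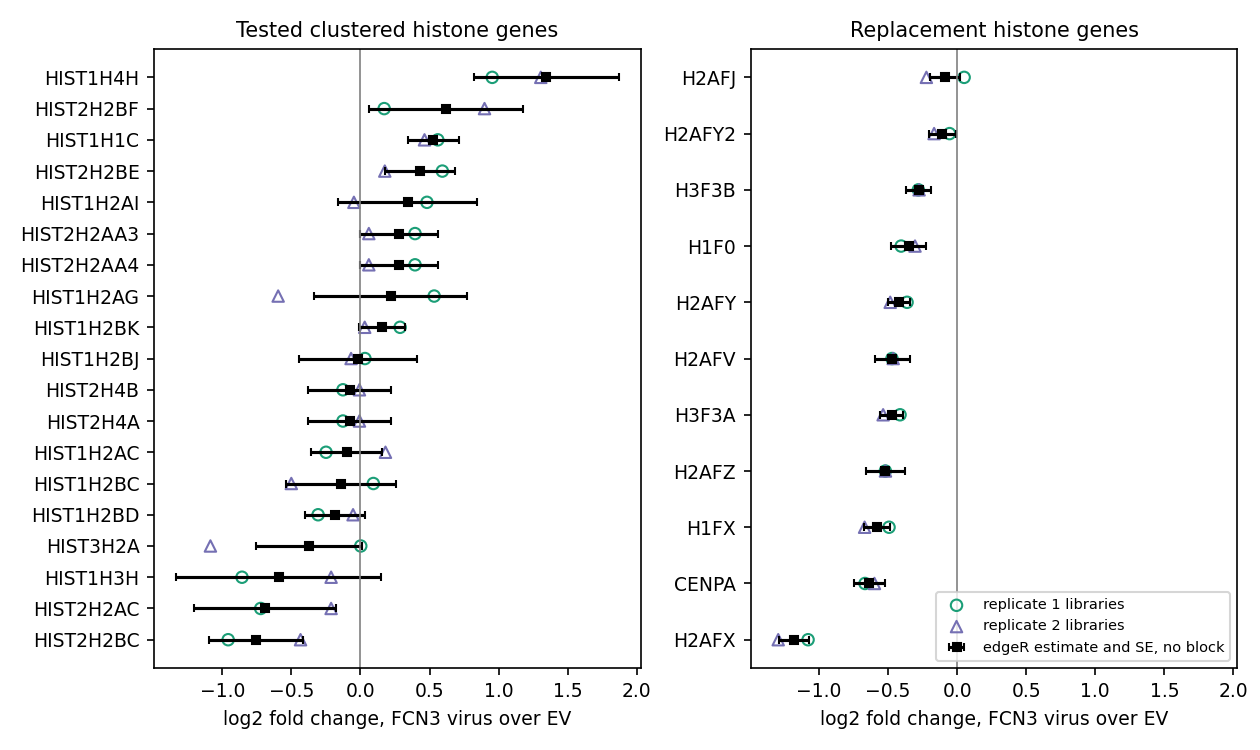
Log2 fold change of FCN3 virus over EV for the 19 clustered histone genes that were tested (left) and for 11 replacement histone genes (right), with the edgeR estimate and its standard error as a square with a bar, and the differences within replicate 1 (circles) and replicate 2 (triangles). The clustered genes lie on both sides of 0, from -0.76 to 1.34, whereas all 11 estimates on the right are below 0, from -1.18 to -0.09, with much shorter bars.

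The replicate numbers themselves were compared in the same blocked fit. Of the 19 members 1 was called, HIST1H2BK, which was higher in replicate 2 by 0.27 (log2, edgeR adjusted p = 0.0075), against 22.2% of all genes tested. DESeq2 called 0 members in this comparison, and 415 up and 371 down of the 18636 genes it fitted. 9 of the 19 members were higher in replicate 2 in both groups and 2 were lower in both, beside 35.5% and 39.8% of all genes tested. A list of RNAs described as lacking a poly(A) tail was examined beside this. Of 22 such RNAs on the list 21 were in the tables and 5 were tested, and with the number 2 libraries 4 were higher in edgeR (MALAT1, NEAT1, RN7SL1 and RN7SL2, of which NEAT1 was chosen after its values were seen). The NEAT1 transcript in the files is 3735 bases long, the length of its short form, which is polyadenylated, so it is no measure of RNA without a tail. MALAT1, a nuclear long RNA, stood at 9.13 and 20.8 TPM in EV replicates 1 and 2 and at 10.98 and 28.9 TPM in FCN3 replicates 1 and 2. RN7SL1, the RNA of the signal recognition particle, stood at 72.3, 238, 55.4 and 54.0 TPM in the same order, and its copy RN7SL2 at 37.6, 235, 49.1 and 59.7 TPM. EV replicate 2 was thus high for both copies. The small nuclear RNA of the U7 particle (RNU7-1, named after its values were seen) was listed at 0 in all libraries. As an RNA without a tail it would not be captured by one, so this 0 does not measure its presence in the cells. Between FCN3 virus and EV none of the 5 was called without the block, beside 0.965% of all genes tested. At an unadjusted 0.05 there were 0, beside 25.1%. With the block MALAT1 was called up and the copies RN7SL1 and RN7SL2 down (19.1% and 17.1% of all genes). Leaving out EV replicate 2 turned RN7SL2 from -1.07 to 0.60, and leaving out FCN3 replicate 2 turned MALAT1 from 0.52 to -0.33. Their part in the members' values was not tested.

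Replacement histones are encoded outside the clusters by genes with ordinary polyadenylated mRNAs, most of which are made throughout the cell cycle. They were covered far better: the 11 tested of 12 stood between 30.5 and 882 TPM, and the 12th, H3F3C, had 1 count. H2AFX, whose product is phosphorylated at DNA breaks and whose mRNA can also end in the stem-loop form, was down-regulated, with 171 and 166 CPM in EV and 80.8 and 67.7 CPM with FCN3 virus (log2 fold change -1.18, SE 0.11, edgeR adjusted p = 0.0085). It was the only 1 of the 11 called without the block. With the block 9 of the 11 were called, all down, beside 17.1% of all genes tested called down and 19.1% called up. CENPA, the centromeric H3, fell by 0.64 on the log2 scale (SE 0.07 with the block, edgeR adjusted p = 1.5e-10), and H1FX, a linker histone, fell by 0.58 (SE 0.06, edgeR adjusted p = 3.6e-12). H2AFZ fell by 0.52 (SE 0.05, edgeR adjusted p = 7.7e-13), although without the block its adjusted p was 0.098. The median log2 fold change of the 11 was -0.47, and all 11 were below 0. The difference between these genes and the clustered ones was not tested.

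Genes that make and handle the clustered mRNAs were measured through their own polyadenylated mRNAs. Of 15 genes of histone mRNA 3′ processing, 0 were called in edgeR without the block (4 at an unadjusted 0.05, beside 25.1% of all genes tested), and with it 9 were called down and 0 up (17.1% and 19.1% of all genes), with a median of -0.20. SLBP, the stem-loop binding protein, was 98.5 and 81.7 CPM in EV and 64.7 and 59.7 CPM with FCN3 virus. It fell by 0.53 with the block (SE 0.06, edgeR adjusted p = 1.4e-10), and the adjusted p was 0.061 without it. SNRPG and SNRPD3, subunits of the Sm ring that the U7 particle shares in part with the spliceosome, fell by 0.40 and 0.39 with the block. Without it their edgeR adjusted p was 0.29 and 0.097. SNRPG overlapped between the groups, at 110.6 and 84.1 CPM in EV and 85.5 and 62.2 CPM with FCN3 virus. CASP8AP2 (FLASH), which holds the cleavage complex together, fell by 0.35 with the block (edgeR adjusted p = 2.6e-04) and had an adjusted p of 0.17 without it.

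Of 10 tested genes of histone gene transcription and mRNA decay, 0 were called without the block (4 at an unadjusted 0.05, against the same 25.1%), and with it 4 were called down and 1 up (17.1% and 19.1% of all genes), with a median of -0.12. NPAT, the activator of the clusters, was 22.3 and 17.98 CPM in EV and 19.9 and 17.4 CPM with FCN3 virus, a log2 fold change of -0.12 (SE 0.16, edgeR adjusted p = 0.70, and 0.31 with the block). CDK2, the kinase that acts on NPAT, was 84.0 and 80.1 CPM in EV and 54.2 and 50.9 CPM with FCN3 virus, and fell by 0.64 with the block (SE 0.06). Its cyclins CCNE1 and CCNE2 fell by 0.45 and 0.43 with the block. UPF1, a helicase of RNA decay, was the fourth called down, and ZCCHC6, a uridylyl transferase that marks histone mRNA for decay, was the 1 called up, at 0.32 (both were chosen after their values were seen).

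Of 19 histone chaperones and escort factors, 0 were called without the block (12 at an unadjusted 0.05, against the same 25.1%), and with it 12 were called down and 2 up (17.1% and 19.1% of all genes), with a median of -0.33. The 2 called up were ASF1A and ATRX, chosen after their values were seen. ASF1B, which hands H3 and H4 to the replication machinery, was 59.8 and 49.2 CPM in EV and 30.3 and 23.0 CPM with FCN3 virus, and fell by 1.03 with the block (SE 0.07). CHAF1A, the large subunit of the replication-coupled chromatin assembly factor, fell by 0.79, and NASP, which holds the soluble pool of H3 and H4, by 0.74. The adjusted p of ASF1B, CHAF1A and NASP without the block was 0.032, 0.012 and 0.013. As all 4 libraries serve every one of these comparisons, the lists are not independent of each other.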

How the data were processed

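Gene tables of 4 A549 libraries were used. Per the labels, RNA was taken after 48 h and libraries were made with a stranded mRNA kit. Trimming, alignment to hg19 with STAR 2.6.1d and quantification with RSEM were done by the authors. The gene annotation and strand setting are not given in the sources used here. The authors deposited expected counts (estimated, not normalized) and TPM (scaled for length and depth) per gene. The deposited FPKM was not used.

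Rounded expected counts went into edgeR 4.0.16 under R 4.3.3 (TMM, filterByExpr, quasi-likelihood test, group as the only term, Benjamini-Hochberg adjustment over 14099 genes, FDR 0.01). TMM CPM values for differences within a replicate number used a prior count of 2. DESeq2 1.42.0 and limma 3.58.1 gave alternatives, and the edgeR fit was tested on simulated data. Replicate numbers come from the labels. Deviations of same-numbered libraries correlated (r = 0.802 across 8268 genes), so blocked values are shown as well. TPM was used to compare genes.

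Positions come from GENCODE on GRCh37, in which 70 of 73 members were placed through RefSeq accessions. Stem-loops were 16 bases, starting GG and ending CC, with at least 5 of 6 pairs (G-T allowed) and a 4-base loop starting with T.

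The members and gene lists were chosen with earlier results of these data known. Named members were the 20 of highest mean TPM, the 3 highest of each type, called members and near-identical copies. Named list genes were those called, the 3 largest changes per list with the block, and SLBP, NPAT, CASP8AP2 and H2AFZ.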

Additional observations from a re-analysis of the deposited data

How the results depend on the processing

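Of 578 alternative values for 37 named genes, 523 kept their direction and their side of the threshold, 39 passed the threshold only under the alternative and 16 reversed. Of the counts, medians and sums, 38 alternative values stayed close and 21 moved. With the replicate block 1 member was called (HIST1H1C), and edgeR's estimate for HIST1H2BJ turned to 0.0027. Under every other setting for FCN3 virus against EV, each library left out included, 0 members were called at an FDR of 0.01. Between replicate numbers DESeq2 called 0 in place of 1. The median log2 fold change of the tested members was -0.15 in DESeq2 and -0.15 in limma on log2(TPM + 0.1), with more members tested, and 0.0274 to 0.15 with a library left out. HIST1H2AG turned to -0.082 in limma on log2(TPM + 1), -0.15 in limma on log2(TPM + 0.1) and -0.012 in DESeq2 with the block. When single libraries were left out, estimates ranged from -0.036 (without EV replicate 1) to 0.35 for HIST1H2BK, and from -0.37 to 0.021 (without FCN3 replicate 1) for HIST1H2BD. They ranged from -0.23 to 0.14 (without EV replicate 1) for HIST1H2AC, from -0.16 to 0.027 (without FCN3 replicate 1) for HIST2H4A and HIST2H4B, and from -0.47 to 0.051 (without EV replicate 2) for HIST1H2BC. They ranged from -1.09 to 0.17 (without EV replicate 1) for HIST2H2AC, from -0.31 to 0.22 (without EV replicate 1, and 0.14 without FCN3 replicate 2) for HIST1H2BJ, and from -0.26 to 0.069 (without EV replicate 1) for NPAT. They ranged from -2.01 to 0.60 (without EV replicate 2) for RN7SL2 and from -0.33 (without FCN3 replicate 2) to 1.22 for MALAT1. Detected members numbered 19 (EV replicate 1), 12 (EV replicate 2), 19 (FCN3 replicate 1) and 14 (FCN3 replicate 2) at 10 or more counts. At 1 or more counts they numbered 43 in EV replicate 2 and 51 in FCN3 replicate 1, and at 0.1 TPM or more 45 and 49. At 1 TPM or more they numbered 23 in EV replicate 1 and 20 in FCN3 replicate 1, and after thinning 25 and 20. Without the 3 highest members the mean summed TPM was 109.9 in EV and 95.9 with FCN3 virus. Apart from the settings that test more members or leave out samples or genes, the cause of these moves was not tested. There were 2 libraries a group, and 52 of the 73 members had under 20 counts in all, of which none was tested.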

Other observations

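The promoters of the members were read from RefSeq (GRCh38.p14, from 250 bases before to 50 after each start) for the 65 members that matched by symbol or accession, as context for how alike the genes are apart from their measured levels. The letters TATAAA, searched on both strands, were in 43 of the 65 (66.2%), against 11.5% of 35116 promoters of the same length. CCAAT was in 55 (84.6%) against 34.6%, in every matched H1, H2A, H2B and H3 promoter but in 3 of 13 H4 promoters. The octamer ATTTGCAT was in 25 (38.5%) against 1.77%, in 11 of 16 H2A and 14 of 18 H2B promoters and in 0 of the H1, H3 and H4 promoters. Divergent H2A and H2B genes can share 1 promoter stretch, so these counts are not independent. A match describes the letters in the window and draws nothing about a factor.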
